A study of Mus musculus with 14 samples.

Results

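The miR-183/96/182 cluster is a set of microRNAs (miRNAs, short RNAs that guide repression of matching messenger RNAs) cut from 3 neighbouring hairpins. Of the 1250 mature miRNA lines in the table of counts, the 4 lines mmu-miR-182-5p, mmu-miR-183-5p, mmu-miR-183-3p and mmu-miR-96-5p (the prefix, for mouse, is left out below) were taken by name, over all 4 groups, by a rule that sets no threshold on their values. Small RNA had been sequenced from mouse cells with bone marrow as their source and excised bone as their tissue, per the labels. The control groups are labelled wild type, and the stimulated macrophages carry IL4 in their titles, a T helper cell cytokine known for turning macrophages to alternative activation. Extracellular exosomes, small vesicles released into the culture supernatant, gave 4 control and 4 IL4 libraries, and cell lysates gave 3 control and 3 IL4 libraries. The dose and duration of IL4, the mouse strain and age, and the animals or cultures behind each replicate were not found in the labels. The p-values therefore measure only library-to-library spread, which may be technical. Libraries are named below by the date in their titles. Each date held 1 control and 1 IL4 library of the same compartment, and exosomes and lysates shared no date.

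The cluster is conserved across animals and is best known from sensory organs, where it is abundant in photoreceptors and inner-ear hair cells. In immune cells miR-182 is known as a miRNA of activated helper T cells that represses the transcription factor Foxo1, and miR-96 shares that target. In most hairpins one arm is loaded into Argonaute as the guide, and the other, the passenger arm, is mostly degraded.

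The sequences show how the members relate, since a miRNA finds its targets mainly through its seed, bases 2 to 8, here in capitals (RefSeq, GRCm38.p6, written 5′ to 3′).
miR-182-5p: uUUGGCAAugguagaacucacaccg
miR-96-5p: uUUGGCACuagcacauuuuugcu
miR-183-5p: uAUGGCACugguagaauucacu
miR-183-3p: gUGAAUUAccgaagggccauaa
Counted from the 5′ end, miR-96-5p differs from miR-182-5p within the seed by A8C alone, so that bases 2 to 7 are the same. The seed of miR-183-5p differs from that of miR-96-5p by U2A (U in miR-96-5p), and from that of miR-182-5p by U2A and A8C (U and A in miR-182-5p). Over the whole length, aligned without gaps from the 5′ end, miR-182-5p is closer to miR-183-5p, with 18 of 22 aligned bases identical, than to miR-96-5p, with 12 of 23. The longest run that any pair of members shares is 8 bases (miR-182-5p and miR-183-5p), which is short against the mature lengths of 22 to 25 bases. The seed of miR-183-3p resembles none of the other members. The hairpin of Mir183 holds 2 of the members and is shown with both arms in capitals, miR-183-5p first.
Mir183: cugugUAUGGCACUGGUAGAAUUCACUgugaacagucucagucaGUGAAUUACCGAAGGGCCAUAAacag

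The 3 hairpins lie on the minus strand of chromosome 6 (GRCm38.p6), and the GENCODE M21 annotation gives the same coordinates. Mir183 spans 30169668 to 30169737, Mir96 spans 30169446 to 30169551, and Mir182 spans 30165918 to 30165992. Transcription on this strand meets Mir183 first, then Mir96 after 116 bases and Mir182 after a further 3453 bases. All 3 fall within the RefSeq span of the long non-coding host gene Mirc35hg, 30158640 to 30174125, also on the minus strand. They lie outside the protein-coding gene Nrf1, which ends at 30153458.

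The exosome libraries were shallow, with 28417 to 411671 counts in total, against 3941480 to 6792079 in lysates. One count was therefore worth 2.43 to 35.2 CPM (counts per 1e+06 counts, each count divided by the sum of its library) in exosomes and 0.147 to 0.254 CPM in lysates. The myeloid markers miR-223-3p, miR-142a-3p, miR-142a-5p and miR-511-3p had counts in every group and together took 1.61% to 3.70% of exosome and 1.23% to 3.17% of lysate counts. The erythroid list (3 of 3 lines found, 2.15% to 5.45% of exosome counts against 0.0117% to 0.0210% in lysates) and the endothelial list (2 of 2, 0.410% to 2.75% against 0.00134% to 0.00339%) stood at higher shares in exosomes than in lysates. The epithelial list (7 of 7) ranged from 0.0360% to 10.5% of exosome counts, with miR-203-3p its largest line there and miR-205-5p at 0 counts in every lysate. Its share in lysates was 0.0161% to 0.0267%. The lymphocyte, stromal, muscle, neuronal and liver lists took 0.0639% to 0.187%, 0.356% to 0.985%, 0.0287% to 0.336%, 0% to 0.0493% and 0.0902% to 1.20% of exosome counts. In lysates they took 0.000939% to 0.00281%, 0.247% to 0.450%, 0.000156% to 0.00127%, 0% to 5.84e-05% and 0.000290% to 0.0281%. The muscle marker miR-206-3p was at 0 in both control groups, and the neuronal marker miR-124-3p was at 0 in control lysates.

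Of the cluster, miR-182-5p and miR-183-5p were the abundant members, while miR-96-5p and miR-183-3p gave few counts. As each read covers a whole miRNA, counts are not scaled by length, but ligation to sequencing adapters can favour some sequences, so levels of different miRNAs are compared only roughly. In control lysates miR-182-5p stood at 155 CPM (23 January), 159 (14 March) and 141 (21 March), and in IL4 lysates at 92.3, 56.6 and 58.2 CPM on the same dates. The lysate groups did not overlap. In control exosomes miR-182-5p stood at 211 CPM (25 January), 276 (16 March), 126 (5 April) and 355 (29 December), and in IL4 exosomes at 640, 214, 182 and 482 CPM. The exosome groups overlapped, and the spread within each of them was wider than in lysates. Its rank among all lines was 122 to 134 in control lysates, 150 to 171 in IL4 lysates and 97 to 196 in exosomes.

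For miR-183-5p the control lysates were close together, at 90.4, 93.9 and 92.2 CPM, and the IL4 lysates lay at 67.8, 44.9 and 37.8 CPM. These groups did not overlap either. Control exosomes held 246, 239, 171 and 273 CPM of miR-183-5p and IL4 exosomes 499.7, 161, 134 and 261 CPM, in the order of dates given above. The IL4 exosome library of 25 January was the highest of all 14 for both members. By group means miR-182-5p had the order IL4 exosomes (380 ± 219 CPM, SD, n = 4), control exosomes (242 ± 97.5, n = 4), control lysates (152 ± 9.68, n = 3) and IL4 lysates (69.0 ± 20.2, n = 3). The order for miR-183-5p was the same, at 264 ± 166.6, 232 ± 43.6, 92.2 ± 1.76 and 50.2 ± 15.7 CPM. In both orders the first neighbours, the exosome groups, did not differ beyond their spread. Control exosomes and control lysates overlapped for miR-182-5p but not for miR-183-5p, and control and IL4 lysates were separate for both. Both orders are of CPM and depend on that scale. With libraries rescaled as described below, control exosomes against control lysates gave a log2 fold change of -0.18 (SE 0.51) for miR-182-5p.

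**Figure D1:**
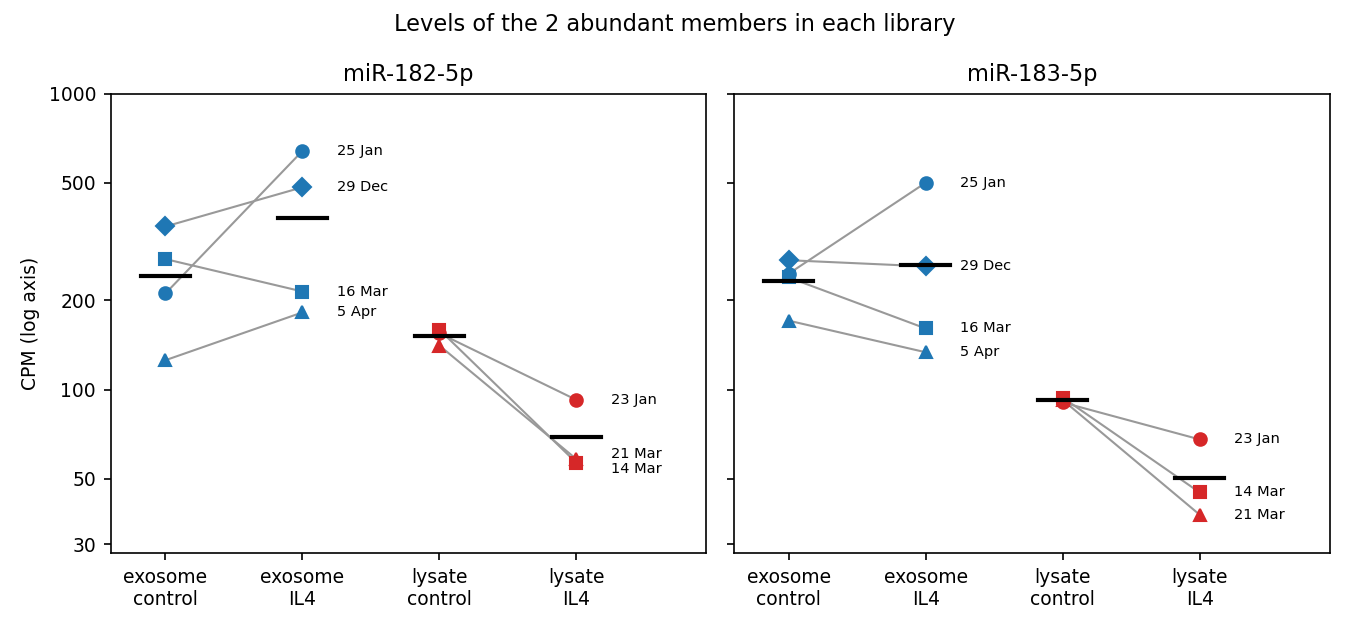
Level of miR-182-5p (left) and miR-183-5p (right) in each of the 14 libraries, in CPM on a log axis, by group. Points are libraries (blue exosomes, red lysates), grey lines join the control and IL4 library of 1 date, and black bars are group means; both members were lower with IL4 at all 3 lysate dates, while the exosome lines run in both directions.

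The least abundant members were close to or below what the exosome depth could detect. In control lysates miR-96-5p had 9, 19 and 5 counts, and in IL4 lysates 8, 0 and 3. Pooled over each group this is 1.83 CPM (95% exact Poisson interval 1.26 to 2.57) in controls and 0.737 CPM (0.368 to 1.32) with IL4. The ratio of the pooled IL4 to the pooled control level was 0.403 (exact binomial interval 0.184 to 0.818), an interval that covers counting error only and not the spread between libraries. All 5 exosome counts of miR-96-5p came from the IL4 library of 5 April, the deepest, where they make 12.1 CPM. At the pooled control lysate level the 4 control exosome libraries together would have held 0.582 counts, so their 0 counts (up to 9.42 CPM by a floor of 3 counts over the group) show no difference from lysates that this depth could detect. In IL4 exosomes the 5 counts stand against 0.452 expected at the pooled IL4 lysate level, a ratio of 11.1 (3.02 to 34.6, counting error only) that rests on 1 library. At the level of that library the 4 control exosome libraries would have held 3.87 counts, against 0 seen.

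The passenger arm miR-183-3p had 3, 1 and 2 counts in control lysates and 0, 0 and 1 in IL4 lysates. It made up 0.359% of the counts of both Mir183 arms in control lysates (6 of 1672 counts, exact Clopper-Pearson interval 0.132% to 0.779%) and 0.130% with IL4 (1 of 769, 0.00329% to 0.722%). In exosomes 2 counts, both in the IL4 library of 16 March and against 0.0411 expected over the 4 IL4 libraries at the IL4 lysate level, stood against 112 counts of miR-183-5p (1.75%, 0.213% to 6.19%), and control exosomes had 0 of 64 (exact upper limit 5.60%, or 4.69% by a floor of 3 counts). The intervals of all 4 groups overlap, so a difference in arm use was not detectable. The 5p arm held nearly all counts of Mir182 as well: miR-182-3p had 1 count against 2749 in control lysates and 6 against 1062 in IL4 lysates, with 0 in exosomes. Its share of both Mir182 arms was 0.0364% (0.000921% to 0.202%) in control and 0.562% (0.206% to 1.22%) in IL4 lysates, on 0 to 3 counts per library, and no test over libraries was run on it. The ratio of its pooled IL4 to control level in lysates was 7.25, with a counting interval of 0.880 to 334. The third hairpin's other arm, miR-96-3p, had no line in the table of counts. Among other miRNAs, miR-1271-5p of chromosome 13 alone shares the whole seed of a member, that of miR-96-5p, and it had 2 counts over all 14 libraries.

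The first comparison asked how IL4 changed the cluster in the cells. In lysates miR-182-5p fell by 0.96 on the log2 scale (SE 0.23, 95% confidence interval -1.48 to -0.44, 3 against 3 libraries), a level 1.95-fold lower with IL4. It passed at an adjusted p of 0.0407 (edgeR quasi-likelihood, Benjamini-Hochberg over the 443 miRNAs tested), at rank 30 by p. These log2 fold changes are on the scale of TMM factors, which rescale libraries so that most miRNAs have a difference near 0. For miR-183-5p the log2 fold change was -0.71 (SE 0.23, interval -1.24 to -0.19, adjusted p = 0.147), with values below control at 3 of 3 dates. Of the 2 members tested 1 was called, where 7.22% of all miRNAs tested were called in either direction, 1.35% lower and 5.87% higher. Both members had groups that did not overlap in CPM, as had 24.2% of the miRNAs tested. In a bulk sample, fewer cells that contain a miRNA and less of it per cell cannot be told apart.

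The lysate call of miR-182-5p rested on all but 1 of the 6 libraries. The call ended without control replicate 1 of 23 January (adjusted p = 0.0579), control replicate 2 of 14 March (0.193), control replicate 3 of 21 March (0.118), IL4 replicate 2 of 14 March (0.180) or IL4 replicate 3 of 21 March (0.125), while the log2 fold change stayed between -0.87 and -1.12 over the 6 fits (edgeR). It also ended with scaling by library size alone (-1.13, adjusted p = 0.0657) and in 1 fit over all 14 libraries (-1.06, adjusted p = 0.616). Under library size alone the median over all tested lines shifted by -0.19, and 57.1% of its calls were higher with IL4, against 81.2% under TMM factors. With the date as a replicate block miR-183-5p passed as well (-0.72, SE 0.19, adjusted p = 0.0486 with edgeR) and the number of miRNAs called was 50 in place of 32. Within dates the IL4 to control ratio of CPM was 0.596, 0.355 and 0.413 for miR-182-5p and 0.750, 0.478 and 0.410 for miR-183-5p.

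The same question in exosomes gave no call for the cluster. Both members had overlapping groups, where 6.04% of the miRNAs tested had none. The log2 fold change of miR-182-5p was 0.86 (SE 0.57, interval -0.42 to 2.14, adjusted p = 0.804 with edgeR, 4 against 4 libraries) and that of miR-183-5p was 0.36 (SE 0.54, interval -0.84 to 1.57, adjusted p = 0.862). In this comparison 0.549% of the 182 miRNAs tested were called, and 12 had an unadjusted p under 0.05. Within dates the IL4 to control ratio of CPM was 3.03, 0.777, 1.45 and 1.36 for miR-182-5p, above 1 at 3 of 4 dates. For miR-183-5p it was 2.03, 0.672, 0.782 and 0.953, above 1 at 1 of 4.

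The date of 25 January carried much of the exosome difference. There the IL4 library held 3.03-fold more miR-182-5p and 2.03-fold more miR-183-5p than the control library, on 32 against 6 and 25 against 7 counts. Together, all lines named miR-203 took 19.4% of counts in that IL4 library and 9.28% in its control. They took 0.0326% to 3.53% in the other 6 exosome libraries and 0.000895% to 0.00264% in lysates. Of these lines the epithelial list holds miR-203-3p alone, at up to 100436 CPM in IL4 exosomes. The exosome libraries of 5 April had the smallest miR-203 shares (0.128% in control and 0.0326% with IL4) and also the lowest miR-182-5p in each group. The control library of 25 January, in contrast, held less miR-182-5p than those of 16 March and 29 December. Without both libraries of 25 January the IL4 log2 fold change in exosomes was 0.46 (SE 0.61) for miR-182-5p and -0.09 (SE 0.50) for miR-183-5p, and neither passed (adjusted p = 0.950 and 0.962 with edgeR). Without the IL4 library of 25 January alone, that of miR-183-5p was -0.15. Of 5 epithelial lines tested between exosomes and lysates, only miR-203-3p and miR-205-5p were called higher, in controls and with IL4. The log2 differences were -0.57 and -0.62 for miR-200b-3p, 0.16 and 0.35 for miR-200a-3p, and -0.33 and 0.38 for miR-200c-3p. Among IL4 exosomes the library of 25 January held the highest CPM of miR-205-5p (3738), miR-200c-3p (420), miR-141-3p (180) and miR-200b-3p (160). It did not for miR-200a-3p and miR-429-3p, and miR-141-3p had 10 counts in the whole group. The part of miR-203 and its source in these values was not tested.

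**Figure D2:**
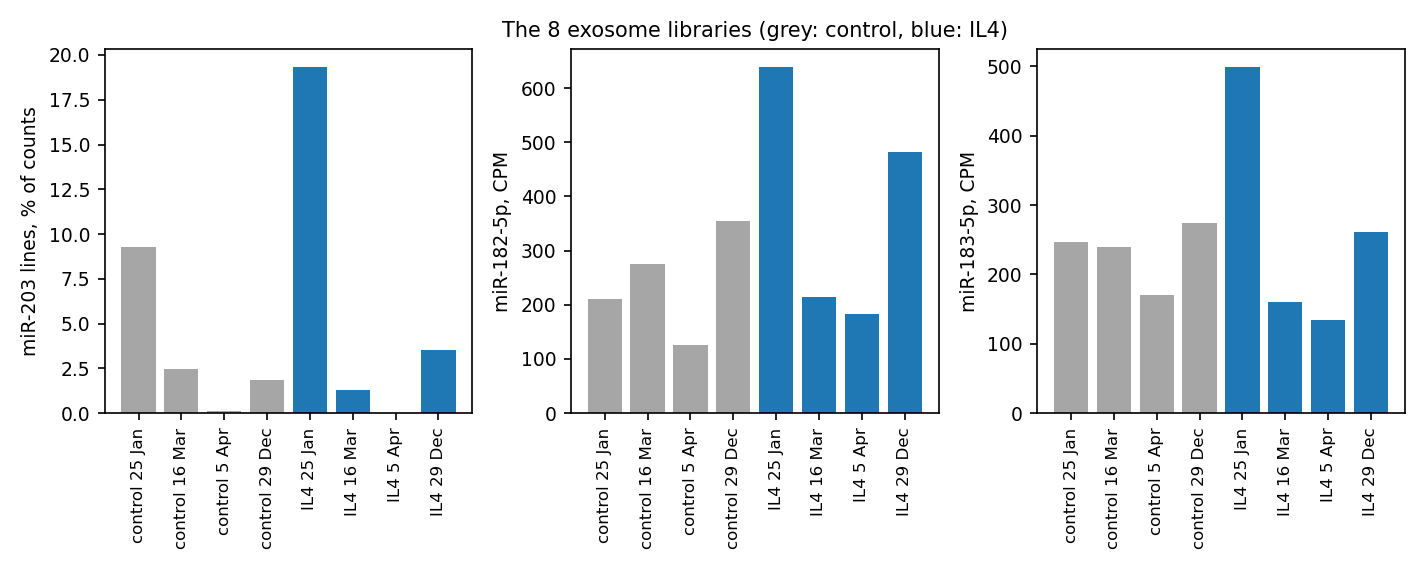
Share of counts in the miR-203 lines (left, percent) and levels of miR-182-5p (middle) and miR-183-5p (right, both CPM) in the 8 exosome libraries, grey for control and blue for IL4, named by the date in their titles. The IL4 library of 25 January has the tallest bar in each panel, at 19.4%, 640 CPM and 499.7 CPM.

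The comparison of exosomes with lysates asked whether the cluster's level, on the scale of TMM factors, differed between released vesicles and cells. After IL4 both members were higher in exosomes: miR-182-5p by 1.84 on the log2 scale (3.59-fold, SE 0.51, interval 0.75 to 2.94, adjusted p = 0.00823 with edgeR) and miR-183-5p by 1.76 (3.39-fold, SE 0.48, interval 0.73 to 2.80, adjusted p = 0.00759). All 4 IL4 exosome libraries lay above all 3 IL4 lysates for both members, with 182 to 640 against 56.6 to 92.3 CPM for miR-182-5p and 134 to 499.7 against 37.8 to 67.8 CPM for miR-183-5p. Such differences were common: 49.4% of the 338 miRNAs tested were called in either direction, 30.2% were called higher in exosomes, and 36.4% had groups that did not overlap. Ordered by p, the members came at 115 (miR-182-5p) and 113 (miR-183-5p). Without both exosome libraries of 25 January the values were 1.28 for miR-182-5p (adjusted p = 0.0312 with edgeR) and 1.08 for miR-183-5p (adjusted p = 0.0272). With the miR-203 lines removed from the table they were 1.97 and 1.89 (adjusted p = 0.00472 and 0.00456 with edgeR). Without a filter on low counts miR-183-5p no longer passed (1.51, adjusted p = 0.0554).

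In unstimulated cells neither member was called between exosomes and lysates. The log2 fold change was -0.18 for miR-182-5p (SE 0.51, interval -1.27 to 0.92, adjusted p = 0.788 with edgeR) and 0.49 for miR-183-5p (SE 0.48, interval -0.54 to 1.52, adjusted p = 0.409). In this comparison 50.9% of the 338 miRNAs tested were called in either direction, and 37.6% had groups that did not overlap, as miR-183-5p had. The sign for miR-182-5p changed with the scaling and also with the libraries used. Its value was 0.62 by library size alone, and 0.38 under TMM factors without control exosome replicate 3. The value of miR-183-5p by library size alone was 1.30 and passed (adjusted p = 0.0323 with edgeR). That scaling moved the median of all miRNAs by 0.81 in controls and 0.70 with IL4. Relative to the median, miR-182-5p in controls stood at 0.00 with TMM factors and at -0.01 by library size, miR-183-5p at 0.67 under each scaling, and the IL4 values of miR-182-5p at 1.86 and 1.74. Of all calls, 57.6% in controls and 61.1% with IL4 were higher in exosomes under TMM factors, against 88.7% and 91.4% by library size and 69.9% and 68.9% with DESeq2's size factors. Marker lines were called in both directions between exosomes and lysates. All 3 erythroid and both endothelial lines were called higher in exosomes, in control and in IL4 samples. Their median log2 fold changes in controls were 8.50 and 8.49. The lymphocyte line and the liver line were also called higher in both. Of 3 muscle lines tested, 3 were called higher in controls and 2 with IL4. Of 4 stromal lines tested, 2 were called higher and 1 lower in controls, and 3 higher with IL4. Of 4 myeloid lines, 0 were called higher, while 3 were called lower in controls and 2 with IL4. The part of RNA from other cells in the cluster's exosome levels was not tested.

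**Figure D3:**
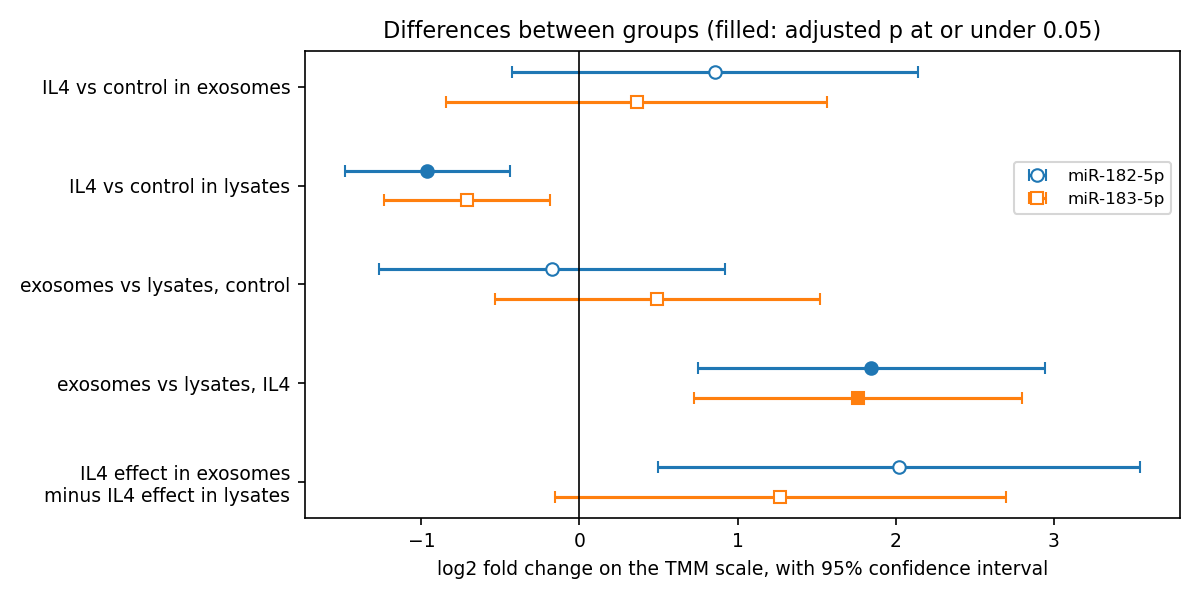
Log2 fold change of miR-182-5p (circles) and miR-183-5p (squares) in each comparison, with 95% confidence intervals from edgeR; filled symbols have an adjusted p at or under 0.05. The filled symbols are miR-182-5p in lysates (-0.96) and both members between IL4 exosomes and IL4 lysates (1.84 and 1.76).

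Whether the IL4 response itself differed between compartments was tested as an interaction over all 14 libraries. The IL4 effect in exosomes minus that in lysates was 2.02 for miR-182-5p (SE 0.71, interval 0.50 to 3.54, unadjusted p = 0.0129, rank 4 of 338 by p) and 1.27 for miR-183-5p (SE 0.67, interval -0.16 to 2.70, unadjusted p = 0.0771, rank 23). Neither passed after adjustment with edgeR (adjusted p = 0.857 and 0.995), and 0% of all miRNAs tested were called, while 14 had an unadjusted p under 0.05. DESeq2 called 0 as well. With the date as a replicate block the value of miR-182-5p was 1.79 (SE 0.43, adjusted p = 0.0980 with edgeR). A difference in response between exosomes and cells is therefore not shown here, although miR-182-5p was called in one compartment and not in the other. The comparisons share libraries, so their values are not independent of each other.

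**Figure D4:**
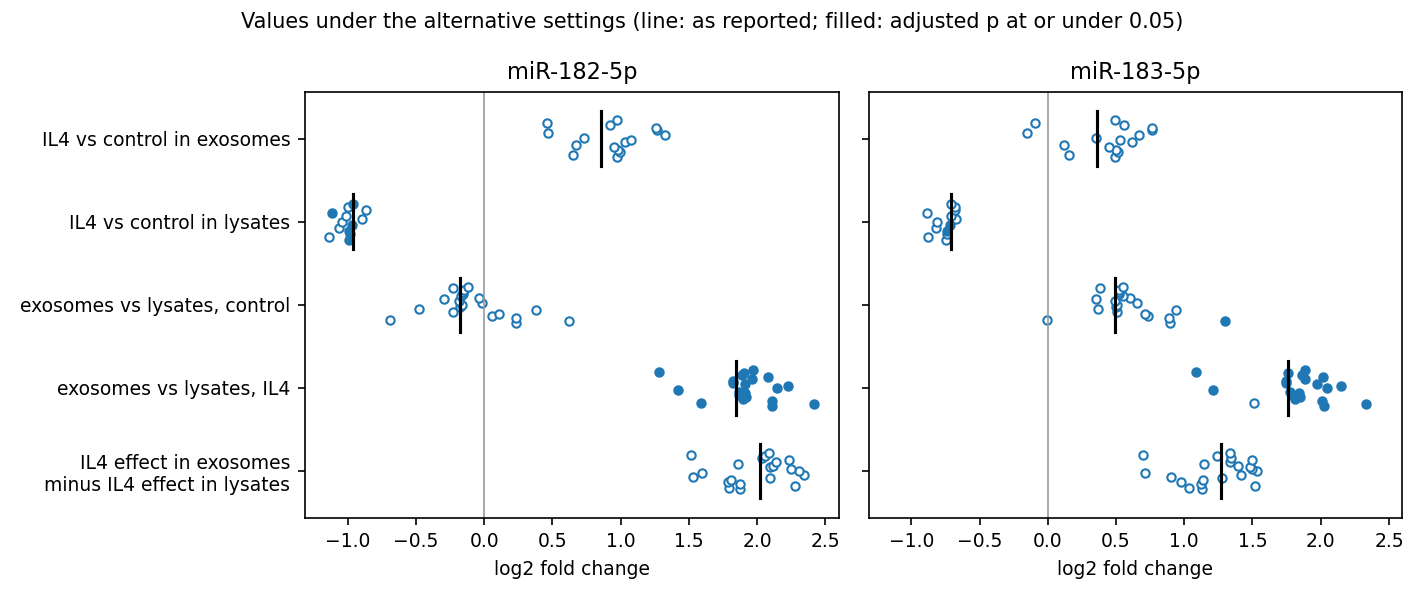
Log2 fold change of the members miR-182-5p and then miR-183-5p in each comparison under every alternative way of processing, one point per alternative (filled where the adjusted p is at or under 0.05), with a black line at the reported value. Points of miR-182-5p in lysates all lie below 0 (-1.12 to -0.87 when 1 library is left out), while those of miR-182-5p between control exosomes and control lysates lie on both sides of 0.

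The ratio of miR-182-5p to miR-183-5p, which needs no scaling between libraries, measured how far the members moved together. It was 1.71, 1.70 and 1.53 in control lysates and 1.36, 1.26 and 1.54 in IL4 lysates, so the groups overlapped at 21 March. In exosomes it was 0.857, 1.15, 0.735 and 1.30 in controls and 1.28, 1.33, 1.36 and 1.85 with IL4, groups that overlapped by a narrow margin. On the log2 scale (pseudocount 0.5) the IL4 minus control difference was -0.25 in lysates (exact permutation test, two-sided, p = 0.2, the smallest possible 0.1) and 0.54 in exosomes (exact permutation p = 0.0571, smallest possible 0.0286). Within dates the IL4 minus control difference in exosomes was above 0 at 4 of 4 dates (0.56, 0.20, 0.88 and 0.51), which gives p = 0.125 by exact sign-flip permutation over dates, the smallest that 4 dates allow. In lysates it was above 0 at 1 of 3 dates (exact sign-flip permutation p = 0.5, the smallest possible 0.25). Control exosomes had a ratio below all control lysates, by -0.74 on the log2 scale (exact permutation p = 0.0571, the smallest that 4 against 3 libraries allow), whereas IL4 exosomes and IL4 lysates differed by 0.05 (exact permutation p = 0.800). Adjusted over these 4 comparisons the exact permutation p-values were 0.267, 0.114, 0.114 and 0.800, so no difference in ratio passed. With these numbers of libraries the adjusted permutation p-values could not have reached the threshold, nor could the within-date test. That none passed was therefore fixed in advance and does not decide whether the ratio differed. Exosome ratios rest on 6 to 75 counts of miR-182-5p per library and lysate ratios on 223 to 1082.

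**Figure D5:**
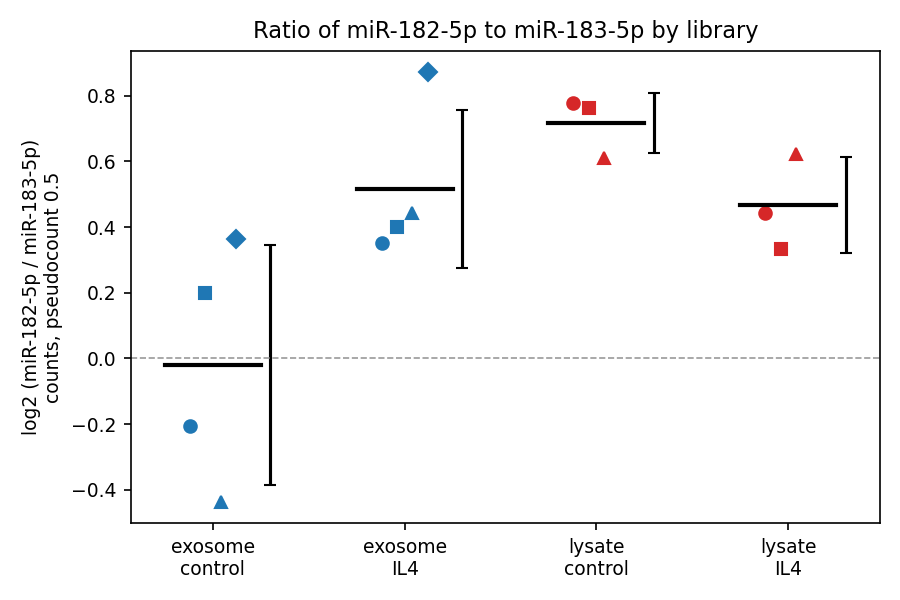
Log2 ratio of miR-182-5p to miR-183-5p counts in each library, by group, with markers for the replicate, a bar at the group mean and an error bar of 1 SD. Means are -0.02 in control exosomes, 0.52 in IL4 exosomes, 0.72 in control lysates and 0.47 in IL4 lysates.

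Summed over the 4 members, the cluster took 246 ± 11.1 CPM (SD, n = 3) in control lysates, 120 ± 36.1 in IL4 lysates, 474 ± 138 (n = 4) in control exosomes and 653 ± 371 in IL4 exosomes. Within it miR-182-5p made up 60.1% to 62.6% of member counts in control lysates, 55.8% to 60.2% in IL4 lysates, 42.4% to 56.5% in control exosomes and 53.3% to 64.9% in IL4 exosomes. In the other counts miR-183-5p led, with 35.1% to 57.6% of member counts in exosomes and 36.5% to 44.2% in lysates. The IL4 exosome library of 16 March, where miR-183-5p held 40.0% and the 2 counts of miR-183-3p the remainder, was the farthest from a sum of these 2 members alone. With CPM computed without the 10 most abundant lines, the log2 ratio of control exosome to control lysate means was 0.27, against 0.95 with all lines.

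Among other miRNAs, the lines most like miR-182-5p were taken by Pearson's r of log2(CPM + 1). Over the 6 lysates they were miR-223-5p (r = 0.986), miR-27a-3p (0.983), miR-223-3p (0.980), miR-330-5p (0.979) and, at rank 5 of 276 lines, miR-183-5p (0.979). The 6 lysates hold 3 control and 3 IL4 libraries, and r was not computed within a group of 3. With IL4 the log2 fold change in lysates was -2.11 for miR-223-5p and -1.24 for miR-223-3p (adjusted p = 0.00754 for each with edgeR). It was -0.19 for miR-27a-3p and -0.31 for miR-330-5p (adjusted p = 0.760 and 0.734 with edgeR). These are on the scale of TMM factors, whereas r used CPM. In CPM miR-27a-3p ran from 3645 to 3873 in control lysates and from 2771 to 3030 in IL4 lysates. Over the 8 exosome libraries miR-183-5p ranked first of 213 lines (0.848), before miR-125b-5p (0.808), miR-23b-3p (0.804), miR-8117 (0.800) and the epithelial miR-205-5p (0.792). These values are descriptions, and within a compartment each control library shares its title date with an IL4 library.

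A list of 11 miRNAs reported, like miR-182 and miR-96, to repress Foxo1 or Foxo3 gave 10 tested in lysates. With IL4, miR-9-5p, known from inflammatory signalling in myeloid cells, rose (log2 fold change 2.45, SE 0.54, adjusted p = 0.0316 with edgeR) and miR-223-3p, abundant in the neutrophil and monocyte lineage, fell (-1.24, SE 0.17, adjusted p = 0.00754). These are 2 calls of 10, where 7.22% of all miRNAs tested were called. The median of the list was 0.17, beside 0.00 over all miRNAs tested. In exosomes 7 were tested, 0 were called with edgeR and 1 had an unadjusted p under 0.05, with a list median of 0.07 beside -0.09 over all. Between exosomes and lysates 3 of 11 were called higher and 4 lower in controls, where 29.3% of all miRNAs tested were called higher and 21.6% lower. With IL4, 3 of 11 were called higher and 2 lower, beside 30.2% and 19.2% of all. Of these 11, miR-370-3p had 0 counts in every lysate.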

How the data were processed

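Small RNA libraries of 8 exosome and 6 lysate samples were read from 1 deposited table of raw counts, with a line for each mature miRNA. Per the labels' protocols, exosomes were purified on an OptiPrep gradient and libraries made with the PerkinElmer NextFlex kit. Per the submitters' processing notes, the tool cutadapt and the build mm10 belong to the processing. The aligner, counting program and strand setting: not given in the sources used here. Adapter trimming and read assignment set the counts and could not be changed here.

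Columns were matched to samples by title, and 0 were left unused. All replicate pairs differed beyond sampling noise (chi-square over its degrees of freedom at least 21.0). The tool for differences was edgeR 4.0.16 (R 4.3.3), with low counts filtered (filterByExpr, TMM, glmQLFit, glmQLFTest, two-sided, Benjamini-Hochberg, threshold 0.05), within exosomes, within lysates, and over all 14 libraries for exosomes against lysates and the interaction. Each SE was obtained as the size of the log2 fold change over the root of its F statistic. The members miR-96-5p and miR-183-3p passed no filter, and the others passed in each comparison. Ratios were tested by exact permutation (scipy 1.17.1). Code was tested on simulated data. Alternatives were size factors and tests of DESeq2 1.42.0, library size, no filter, other sets of libraries, a date block and leaving out each library. Dates in the titles were taken to pair the libraries. Deviations of same-date libraries from group means correlated at 0.208 to 0.476 in exosomes and 0.313 to 0.695 in lysates. Such correlations between libraries of different dates were not computed. Sequences came from RefSeq (GRCm38.p6), which matched 4 of 4 members. Reads amplified by PCR may copy 1 molecule, so the intervals and floors reflect counting error alone.

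Named in the text are the members, lines sharing a seed or hairpin with them, the Foxo list, marker lists, and the 5 lines most like miR-182-5p among lines with a mean of at least 10 CPM in lysates or 100 CPM in exosomes. The rule for the members uses names alone, but the members and lists were chosen with earlier results of these data known.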

Additional observations from a re-analysis of the deposited data

Results flagged for a closer look

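In each of 2 cases 1 IL4 exosome library stood apart because the other 3 were at 0. The library of 16 March (replicate 2) had 26.8 CPM of miR-183-3p, which is 2 counts, and that of 5 April (replicate 3) had 12.1 CPM of miR-96-5p, which is 5 counts. The gap from the highest library to the next was the whole range of the group, beyond Dixon's critical value of 0.829 for 4 libraries. At the level of the 5 April library, the IL4 exosome libraries of 25 January, 16 March and 29 December would have held 0.608, 0.907 and 0.932 counts of miR-96-5p, so a count of 0 in each was within reach of their depth. With 3 libraries at 0 any lone count has this gap, so the rate of about 1 in 20 groups that chance gives for continuous values does not hold for these. In all, 12 groups of 4 exosome libraries were examined.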

How the results depend on the processing

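Over 23 results and 342 alternatives, 303 were counted as kept. To count as kept, a tested value had to keep its direction and its side of the threshold. A value with no test had to keep its direction and stay within the spread. Numbers of miRNAs called had only to stay of similar size. Between control exosomes and control lysates, numbers from 122 to 248 all counted as keeping 172. Most permutation tests of the ratio could not have passed with so few libraries, so only a change of direction could count against them. The count of 303 therefore says little about the ratio. Adjusted p-values here are from edgeR except where DESeq2 is named, and the cause of each shift was not tested. The 1 miRNA called in exosomes became 0 by library size alone, 12 without a filter on low counts, 6 with DESeq2 and 0 to 2 when 1 library was left out (0 when control replicate 2, control replicate 3 or IL4 replicate 3 was dropped, 2 when control replicate 4 or IL4 replicate 1 was). For miR-183-5p in exosomes the value ran from -0.15 to 0.77 when 1 library was left out, with -0.15 without IL4 replicate 1, and was -0.092 without both libraries of 25 January, an alternative chosen after seeing the data, as was removing the miR-203 lines. The 32 miRNAs called in lysates became 14 by library size alone, 4 in 1 fit over all 14 libraries, 50 with the date as a replicate block, and 2 to 34 when 1 library was left out (2 on dropping control replicate 2, 13 for control replicate 3, 7 for IL4 replicate 2 and 10 for IL4 replicate 3). In lysates miR-182-5p was -1.13 by library size alone (adjusted p = 0.0657), -1.06 in the fit over all libraries (0.616) and -1.12 to -0.87 when 1 library was left out. Its adjusted p ranged from 0.000174 to 0.616 over 13 alternatives, of which 6 kept the call. In lysates miR-183-5p passed with DESeq2 (-0.74, adjusted p = 0.0143) and with the replicate block (-0.72, adjusted p = 0.0486); the block was fitted for both IL4 comparisons and the interaction and changed no other call of a member there. It was not fitted between exosomes and lysates, which share no date. A sign-flip test of the ratio over dates, also chosen after seeing the data, passed in neither compartment, and so few dates did not allow it to pass.

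Between control exosomes and control lysates, miR-182-5p changed sign with DESeq2's size factors in edgeR (0.23), library size alone (0.62), DESeq2 (0.23) and a fit of these groups only (0.059), and ran from -0.48 to 0.38 when 1 library was left out (0.11 without control exosome replicate 1, 0.38 without control exosome replicate 3). There miR-183-5p was 1.30 by library size alone (adjusted p = 0.0323) and -0.0065 without a filter. Between IL4 exosomes and IL4 lysates miR-182-5p was called in 21 of 21 alternatives and miR-183-5p in 20 of 21, the exception being no filter (1.51, adjusted p = 0.0554). The interaction called 3 miRNAs without a filter in place of 0. The log2 ratio of mean summed CPM between control exosomes and control lysates was 0.95, and 0.27 with CPM computed without the 10 most abundant lines. The difference in the ratio of miR-182-5p to miR-183-5p between IL4 exosomes and IL4 lysates ran from -0.068 (without IL4 exosome replicate 4) to 0.129 when 1 library was left out, and was -0.017 without IL4 lysate replicate 2. The planned test of miR-183-5p to miR-183-3p was not run, since the 3p arm had 0 to 3 counts per library. Depth limits the rarest members: a miRNA at the lysate level of miR-96-5p would give under 1 count in either exosome group.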
